A study of Mus musculus with 4 samples.

Results

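The canonical Wnt pathway was examined in the testes of 2 WT and 2 *Ccnyl1* KO mice through 42 genes that encode its ligands, receptors, intracellular relay, nuclear factors and inhibitors. The members were taken from a list of symbols that was chosen with earlier results of these data known. Each gene was read by the probe set with the highest mean signal among those that the platform annotation pairs with that gene alone. By this rule 41 of the 42 genes had a probe set (104 probe sets in all), among 18193 single genes on the array, and *Tcf7* had none. All mice were C57BL/6 males of 2 months, an adult age at which the seminiferous tubules hold germ cells of every stage. The *Ccnyl1* KO mice carried a KO-first allele, in which a LacZ cassette inserted in the gene is carried in all cells, so that the knockout is not limited to germ cells. One Affymetrix GeneChip was hybridised per mouse, and the deposited values are MAS 5.0 signals (linear intensities, each array multiplied by a single factor).

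Wnt ligands are lipid-modified secreted proteins that bind a Frizzled receptor together with the co-receptor LRP5 or LRP6. In the absence of a ligand, a destruction complex of AXIN, APC, GSK3 and casein kinase 1 phosphorylates β-catenin, which is then marked for degradation by the ubiquitin ligase that contains BTRC. Receptor activation recruits Dishevelled and AXIN to the membrane, β-catenin accumulates, and with TCF and LEF factors it turns on target genes, several of which encode inhibitors of the pathway itself. In the testis, WNT signals are known from Sertoli cells and from spermatogonia. The question was raised here because cyclin Y, the homolog of CCNYL1, acts with CDK14 on LRP6.

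No member passed the test. A limma fit of log2(signal + 16) on genotype took in the 32438 probe sets whose mean signal reached 32, and an adjusted p under 0.05 (Benjamini-Hochberg over all of them) was the threshold. Of the members, 37 entered the test and 0 were called, with adjusted p-values from limma of 0.645 to 0.995, where 0.0123% of all tested probe sets were called. Of all 80 tested probe sets of the members, 0 were called as well, and 2 of them had an unadjusted p under 0.05 from limma. The knockout itself was visible in the same fit. *Ccnyl1* had signals of 2256 and 2425 in WT and of 921 and 969 in *Ccnyl1* KO testes, with a log2 fold change of -1.29 that passed (limma, adjusted p = 0.00463). Log2 fold changes here are *Ccnyl1* KO over WT on the log2(signal + 16) scale, which understates the change of dim probe sets. Levels of different probe sets are not comparable with each other, so only the same probe set is compared between mice.

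The 250 bases before a transcription start are shown for 4 members. *Axin2* and *Nkd2* encode feedback inhibitors, *Axin2* being a known target of β-catenin and TCF, *Lef1* encodes a nuclear partner of β-catenin, and *Gsk3b* encodes the kinase of the destruction complex. They are shown so that windows with and without the letters of a TCF/LEF core can be compared. The sequences are from RefSeq (GRCm38.p6), 5′ to 3′ on the strand of the gene, and capitals mark the core of the TCF/LEF motif, CTTTGA or TCAAAG on the other strand. *Axin2* lies at chr11:108920099-108920348 (plus strand), *Nkd2* at chr13:73847632-73847881 (minus strand), 1 of the 4 starts listed for *Lef1* at chr3:131156044-131156293 (plus strand) and *Gsk3b* at chr16:38088751-38089000 (plus strand).
Axin2: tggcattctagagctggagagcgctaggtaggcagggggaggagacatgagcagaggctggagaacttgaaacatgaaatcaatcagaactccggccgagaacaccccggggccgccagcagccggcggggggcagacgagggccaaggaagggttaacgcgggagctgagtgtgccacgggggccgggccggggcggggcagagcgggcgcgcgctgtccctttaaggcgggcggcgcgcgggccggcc
Nkd2: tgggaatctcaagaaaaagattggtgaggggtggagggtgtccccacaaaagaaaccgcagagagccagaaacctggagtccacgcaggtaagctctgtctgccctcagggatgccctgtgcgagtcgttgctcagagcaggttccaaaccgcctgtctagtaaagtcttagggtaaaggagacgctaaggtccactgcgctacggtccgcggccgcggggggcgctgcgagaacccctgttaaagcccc
Lef1: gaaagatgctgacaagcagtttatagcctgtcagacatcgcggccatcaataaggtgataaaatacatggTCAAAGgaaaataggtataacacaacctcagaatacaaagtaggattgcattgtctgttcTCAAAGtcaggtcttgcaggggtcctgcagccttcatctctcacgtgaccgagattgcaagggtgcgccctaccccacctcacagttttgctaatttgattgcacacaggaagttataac
Gsk3b: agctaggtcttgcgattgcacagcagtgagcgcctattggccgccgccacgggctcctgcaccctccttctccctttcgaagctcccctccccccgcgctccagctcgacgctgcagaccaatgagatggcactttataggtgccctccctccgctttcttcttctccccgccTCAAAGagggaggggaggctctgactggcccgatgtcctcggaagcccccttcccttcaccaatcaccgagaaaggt
The *Lef1* window holds 2 matches and the *Gsk3b* window 1, while those of *Axin2* and *Nkd2* hold 0. The windows of the other 3 starts of *Lef1* also hold 0. Windows were given for 27 of the 42 members. A match stood in the window of at least 1 start for 4 of these 27 genes (*Lef1*, *Gsk3b*, *Fzd1* and *Wnt5b*), and in 4 of their 37 windows, beside 13.8% of the 32851 windows of all genes. The windows of the members were rich in G and C, with a median of 66.4% beside 52.4% over all windows. A match is a description of letters and not a measured binding site, and the start that a probe set reads was not known here.

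The tested members lay on both sides of their WT level, with a small excess above it. The log2 fold change was positive for 24 members and negative for 13, that is positive for 64.9% of them beside 49.9% of the 15268 genes tested, and the median was 0.06 beside 0.00 over all genes (-0.000364). In 11 members both *Ccnyl1* KO mice lay above both WT mice, which is 29.7% of the 37 where 17.7% of all tested genes had this order. In 5 members both lay below, which is 13.5% beside 18.3% of all genes. The counts of positive log2 fold changes moved with the scaling of the arrays, for the members and for all genes alike. With all arrays scaled to one median, 18 of 37 members were positive beside 33.3% of all genes. The medians moved to -0.01 for the members and to -0.08 over all genes. The count above the WT level came mainly from members with a mean signal of 100 to 500, 16 of 20 positive, beside 54.6% of the 5056 genes in the same range. Of the 9 members below a signal of 100, 5 were positive, beside 55.3% of all tested genes in that range. Of the 8 at 500 or more, 3 were positive, beside 43.5%.

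**Figure D1:**
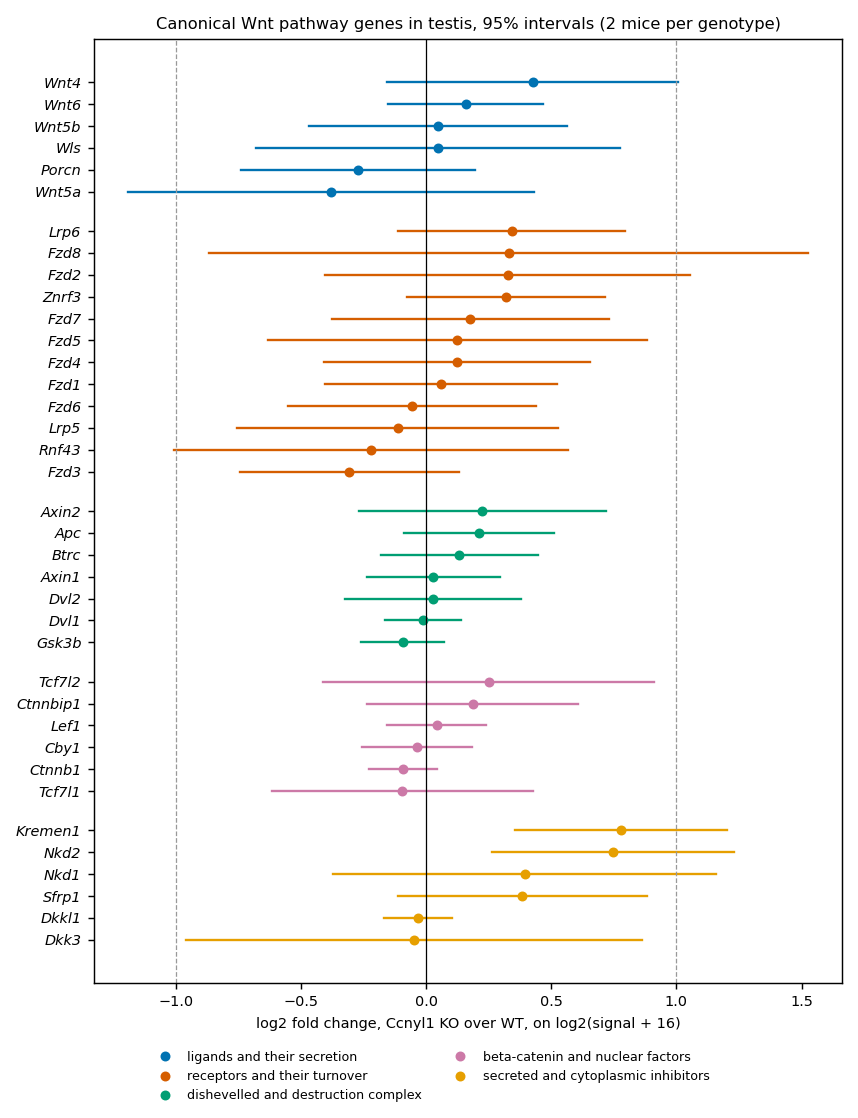
Log2 fold change of *Ccnyl1* KO over WT testis (x axis, on log2(signal + 16)) of the 37 tested members, ordered within each role, with dots for the estimate, lines for the 95% interval of the moderated test and dashed lines at a 2-fold change. Only the intervals of *Kremen1* and *Nkd2* leave out 0 before adjustment, and the intervals are short for bright genes such as *Dvl1* and *Ctnnb1*.

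None of the tested ligands passed. *Wnt4*, which encodes a ligand known from ovary development, had signals of 65.7 and 80.8 in WT and of 106 and 101 in *Ccnyl1* KO mice. Both *Ccnyl1* KO mice lay above both WT mice, but the log2 fold change of 0.43 had a 95% interval from -0.16 to 1.01 (adjusted p = 0.855 from limma). Its second probe set had 0.45, with 8.88 and 73.2 in WT and 87.5 and 23.8 in *Ccnyl1* KO mice, so that there the genotypes overlapped. *Wnt5a*, which encodes a ligand known mainly for signalling without β-catenin, had 62.9 and 54.5 in WT and 50.3 and 33.6 in *Ccnyl1* KO mice. The brightest probe set of *Wnt5a* thus gave -0.38 (-0.17 without *Ccnyl1* KO replicate 2) and the other tested one 0.44. The WT mean of the latter was 31.4, below the minimum of 32, so it entered the test only through the *Ccnyl1* KO mice. *Wnt6* had 410.4 and 453 in WT and 514 and 454 in *Ccnyl1* KO mice (log2 fold change 0.16, and 0.07 without *Ccnyl1* KO replicate 1), and *Wnt5b* overlapped (0.05).
Of the enzymes that equip the ligands, *Porcn*, which encodes the acyltransferase that attaches their lipid, had 209.6 and 158 in WT and 143 and 154 in *Ccnyl1* KO mice. These groups did not overlap, and the log2 fold change of -0.27 had an interval from -0.74 to 0.19, but without WT replicate 1 it was -0.09. *Wls*, which encodes the carrier of lipid-modified ligands to the cell surface, had 0.05, with overlapping mice. Over the 6 tested genes of this role, 4 were positive and 2 negative, with a median of 0.05.
The other 3 ligands were below the minimum signal and were not tested. *Wnt2b* had 35.3 and 43.4 in WT and 10.0 and 11.6 in *Ccnyl1* KO testes, so that its mice did not overlap. When probe sets of any signal were admitted to the test, *Wnt2b* gave a log2 fold change of -1.04 with an interval from -1.86 to -0.23 (adjusted p = 0.829 from limma). *Wnt3* and *Wnt10b* had mean signals of 2.07 and 10.2 over the 4 arrays.

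The Frizzled receptors, which bind the ligands at the cell surface, gave 6 positive and 2 negative log2 fold changes, from -0.31 for *Fzd3* to 0.33 for *Fzd8*. *Fzd3* had 451 and 306 in WT and 296 and 299 in *Ccnyl1* KO mice. Its difference rested on the first WT mouse, since without it the log2 fold change was -0.04, and its other 3 tested probe sets ran from -0.46 to 0.02. *Fzd2* (0.33), *Fzd7* (0.18), *Fzd5* (0.12), *Fzd4* (0.12), *Fzd1* (0.06) and *Fzd6* (-0.06) had overlapping mice. *Fzd8* was the least certain of them, with 45.1 and 20.0 in WT and 23.4 and 72.4 in *Ccnyl1* KO testes and an interval from -0.87 to 1.53.
Neither co-receptor passed. *Lrp6*, which encodes the co-receptor that CDK14 and cyclin Y phosphorylate, had 130.5 and 116 in WT and 161 and 159.8 in *Ccnyl1* KO mice, so that both *Ccnyl1* KO mice lay above both WT mice. The log2 fold change of 0.34 had an interval from -0.11 to 0.80 and failed the threshold (limma, adjusted p = 0.847). The other probe set of *Lrp6*, below the minimum signal, overlapped, with 34.2 and 2.90 in WT and 17.8 and 5.32 in *Ccnyl1* KO mice. *Lrp5* overlapped, with 70.7 and 90.9 in WT and 66.3 and 80.4 in *Ccnyl1* KO mice (log2 fold change -0.11). Whether the changes of *Lrp6* and *Lrp5* differed from each other was not tested.
On the side of the kinase, *Cdk14* had 216 and 222 in WT and 253 and 254 in *Ccnyl1* KO mice (log2 fold change 0.20). *Ccny* had 1663 and 1722 against 1538 and 1567 (-0.12), and *Cdk16*, the partner kinase of CCNYL1, had overlapping mice (-0.13). None of the 3 passed.
RNF43 and ZNRF3 are ubiquitin ligases that remove Frizzled receptors from the membrane, and their genes are induced by the pathway. *Znrf3* had 213 and 277 in WT and 315 and 299 in *Ccnyl1* KO testes, with no overlap and a log2 fold change of 0.32 (interval from -0.08 to 0.72, adjusted p = 0.84 in limma), which was 0.14 without WT replicate 1. *Znrf3* had -0.06 on the other tested one. *Rnf43* had 49.5 and 85.1 against 58.9 and 49.4, a log2 fold change of -0.22 with overlapping mice.

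No gene of the relay or the destruction complex passed. *Dvl1*, one of the genes of the Dishevelled adaptors, had 6445 and 6438 in WT and 6033 and 6749 in *Ccnyl1* KO testes, a log2 fold change of -0.01 with an interval from -0.17 to 0.14. *Dvl2* had 0.03, and *Dvl3*, with a mean signal of 13.9, was not tested. The scaffold *Axin1* had 613 and 629 in WT and 606 and 663 in *Ccnyl1* KO mice (0.03, interval from -0.24 to 0.29), and its second probe set gave 0.04.
*Gsk3b*, whose protein the study also examined by blotting, had 3074 and 3273 in WT and 2895 and 3053 in *Ccnyl1* KO testes. The blots covered total and phosphorylated forms of this protein and of β-catenin, and the paper reported no difference between the genotypes. They measured protein, whereas the values here are of RNA. Both *Ccnyl1* KO mice lay below both WT mice, and the log2 fold change was -0.09 with an interval from -0.26 to 0.07 (adjusted p = 0.878 from limma). The 6 tested probe sets of *Gsk3b* ran from -0.13 to 0.28, with both signs. *Apc*, which encodes the large scaffold of the complex, had 416 and 412 in WT and 510.2 and 455 in *Ccnyl1* KO mice, a log2 fold change of 0.21 with an interval from -0.09 to 0.51 (0.13 without *Ccnyl1* KO replicate 1). The groups did not overlap on this probe set of *Apc*, and the other 2 tested ones gave -0.12 and 0.44.
*Btrc*, the substrate-binding part of the ubiquitin ligase, had 0.13 on the brightest probe set and -0.22 to -0.12 on the other 4. Of their partners outside the list, *Csnk1a1*, which encodes the priming kinase of β-catenin, had 0.10, *Gsk3a* -0.09 and *Fbxw11*, the paralog of *Btrc*, -0.13, and none passed.
*Axin2*, the inducible scaffold that is widely read as a sign of pathway activity, had 101 and 116 in WT and 129 and 131 in *Ccnyl1* KO testes. Both *Ccnyl1* KO mice were thus above both WT mice, with a log2 fold change of 0.23 and an interval from -0.27 to 0.72, so that neither no change nor a rise of 1.5-fold lay outside it (adjusted p = 0.897 from limma). Without WT replicate 1 it was 0.14. The other probe set of *Axin2*, below the minimum signal, overlapped, with 5.06 and 18.7 in WT and 1.33 and 21.8 in *Ccnyl1* KO mice.

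**Figure D2:**
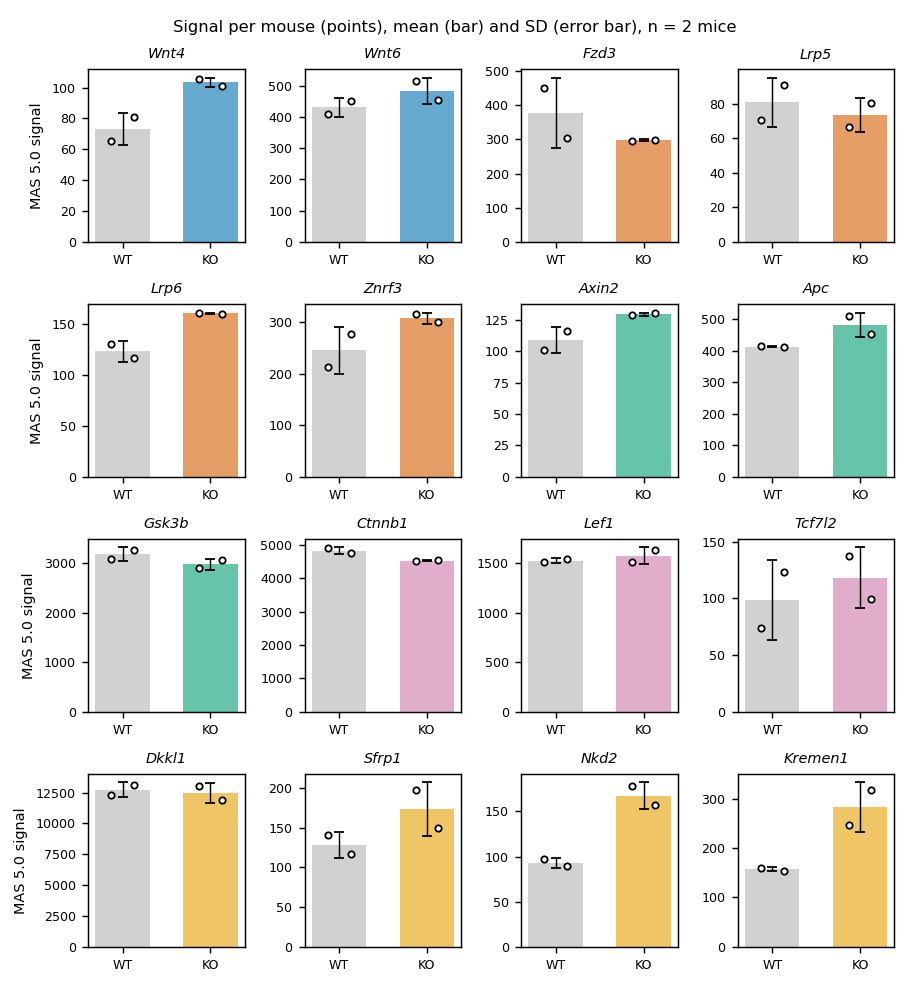
MAS 5.0 signal (y axis, linear and starting at 0) of 16 members on their brightest probe set in WT (grey) and *Ccnyl1* KO (coloured by role) testes, with points for the mice, bars for the mean and error bars for the SD of 2 mice. The genotypes lie furthest apart for *Kremen1* (157 ± 3.73 in WT, 282 ± 50.1 in *Ccnyl1* KO) and *Nkd2* (93.1 ± 5.44 and 167 ± 14.7). They overlap for *Lef1*, *Lrp5*, *Tcf7l2* and *Dkkl1* and do not overlap for the rest. The 16 do not represent the list, in which the genotypes overlap for 21 of the 37 tested members.

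*Ctnnb1*, the gene of β-catenin, had signals of 4891 and 4753 in WT and of 4508 and 4535 in *Ccnyl1* KO testes. The *Ccnyl1* KO mean was 93.8% of the WT mean, with no overlap, and the log2 fold change of -0.09 had an interval from -0.23 to 0.04 (adjusted p = 0.859 from limma). This interval leaves out a fall of 1.5-fold. The other 2 tested probe sets of *Ctnnb1* gave 0.01 and -0.18, each with overlapping mice.
The nuclear partners were close to their WT level or uncertain. *Lef1* had 1509 and 1543 in WT and 1512 and 1632 in *Ccnyl1* KO mice, a log2 fold change of 0.04 with an interval from -0.16 to 0.24. *Tcf7l1*, which encodes a factor that mostly represses, had -0.09. *Tcf7l2* had 73.9 and 124 in WT and 137 and 99.8 in *Ccnyl1* KO mice on the brightest probe set (0.25), while the other 2 tested ones gave 0.51 and -0.46, so that even its direction was not settled. CTNNBIP1 and CBY1 both bind β-catenin and keep it from TCF factors. *Ctnnbip1* had 163 and 205 against 208 and 213 (0.19, and 0.03 without WT replicate 1) and *Cby1* had 1674 and 1946 against 1717 and 1804 (-0.04). Of the 6 tested genes of this role, 3 were positive and 3 negative, with a median of 0.00 (0.0027).

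Among the tested members, the 2 largest log2 fold changes belonged to inhibitors of the pathway. *Kremen1*, which encodes a membrane receptor of Dickkopf proteins that takes LRP6 from the cell surface, had 159.6 and 154 in WT and 247 and 318 in *Ccnyl1* KO testes. The log2 fold change was 0.78 with an interval from 0.35 to 1.20, and the difference exceeded the gap between the mice of either genotype (0.04 in WT and 0.34 in *Ccnyl1* KO on the same scale). After adjustment it failed the threshold (limma, adjusted p = 0.645). The other 2 tested probe sets of *Kremen1* did not show the same size. One had 246 and 136 in WT and 144 and 179 in *Ccnyl1* KO mice (-0.18), and the dimmer one had 43.3 and 47.9 against 52.9 and 71.6 (0.34).
*Nkd2*, which encodes an antagonist that binds Dishevelled, had 97.0 and 89.3 in WT and 178 and 157 in *Ccnyl1* KO testes, a log2 fold change of 0.75 with an interval from 0.26 to 1.23 (adjusted p = 0.699 in limma). Here too both *Ccnyl1* KO mice stood clear of both WT mice on the brightest probe set. Another probe set of *Nkd2* had 85.1 and 87.7 in WT and 92.5 and 82.9 in *Ccnyl1* KO mice (0.02), and the next had 39.0 and 3.94 against 47.2 and 57.6 (1.04). The last, below the minimum signal, had 11.4 and 6.58 in WT and 60.2 and 29.7 in *Ccnyl1* KO mice. For *Nkd1* and *Sfrp1*, the probe sets below that minimum had overlapping mice. With 1 mouse left out, *Kremen1* ran from 0.61 to 0.95 and *Nkd2* from 0.67 to 0.83, and neither passed in any of these fits.
Its relative *Nkd1* had 38.9 and 59.7 in WT and 61.9 and 76.2 in *Ccnyl1* KO mice, a log2 fold change of 0.39 with an interval from -0.37 to 1.16, and the other 2 tested probe sets gave 0.04 and -0.08. *Sfrp1*, which encodes a secreted protein that binds ligands, had 140.1 and 117 in WT and 197 and 149.6 in *Ccnyl1* KO mice, with no overlap and a log2 fold change of 0.38 (interval from -0.11 to 0.88, adjusted p = 0.845 from limma). The other 2 tested probe sets of *Sfrp1* gave 0.48 and 0.02.
In 4 of the 6 inhibitors (*Kremen1*, *Nkd2*, *Nkd1* and *Sfrp1*) the *Ccnyl1* KO mice lay above the WT mice without overlap, an order that 17.7% of all tested genes had, and the median of the role was 0.39. This median lies between *Nkd1* and *Sfrp1*, whose log2 fold changes were 0.16 without WT replicate 1 and 0.20 without *Ccnyl1* KO replicate 1. The list was chosen with earlier results of these data known, so 4 of 6 beside the share of all genes is no independent support. Other members that restrain the pathway, such as *Axin2*, *Rnf43*, *Znrf3*, *Ctnnbip1* and *Cby1*, were grouped in other roles. None of the tested secreted inhibitors outside the list was higher without overlap. *Sostdc1* (-0.14) was lower without overlap, while *Sfrp4* (0.74), *Sfrp5* (0.32), *Notum* (0.29), *Dkk4* (0.09), *Sost* (0.02) and *Frzb* (-0.32) had overlapping mice. Below the minimum signal, *Dkk1* and *Dkk2* were lower and *Sfrp2* higher without overlap. *Dkkl1*, a Dickkopf-like gene known from the acrosome of spermatids, had 12329 and 13151 in WT and 13030.4 and 11896 in *Ccnyl1* KO testes, a log2 fold change of -0.03 with an interval from -0.17 to 0.10. *Dkk3*, a divergent member of the Dickkopf family, had 45.7 and 42.1 in WT and 30.2 and 56.6 in *Ccnyl1* KO mice (-0.05). The 2 members at an unadjusted p under 0.05 from limma, *Kremen1* and *Nkd2*, make 5.41% of the tested members, both higher, while 2.85% of all tested genes were higher and 3.45% lower at that level.

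**Figure D3:**
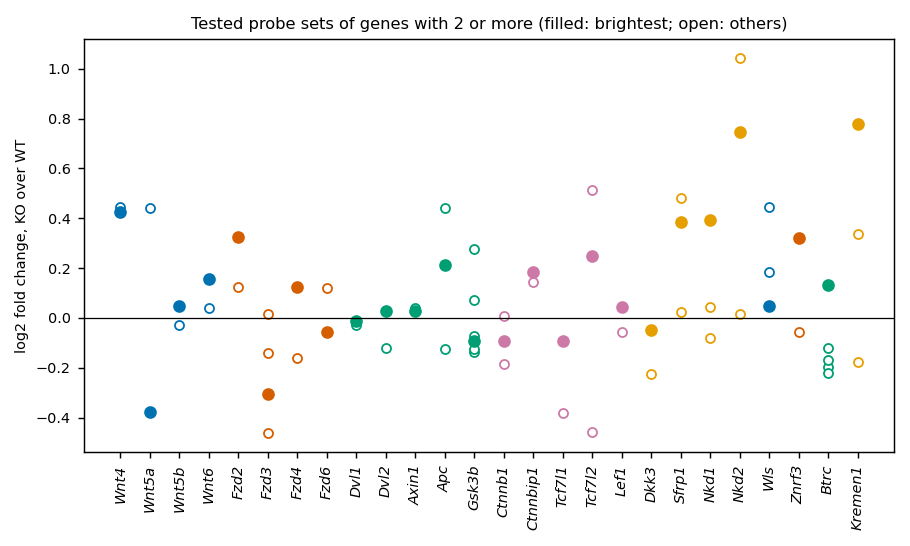
Log2 fold change of *Ccnyl1* KO over WT testis (y axis) of every tested probe set of the 26 members with 2 or more of them, with the brightest probe set filled and the others open. Probe sets of *Kremen1*, *Nkd2*, *Tcf7l2* and *Wnt5a* are spread over more than 0.8, whereas those of *Dvl1* and *Axin1* lie together. The highest values of *Nkd2* and *Wnt5a* belong to probe sets that reached the minimum signal only through the *Ccnyl1* KO mice.

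Different probe sets of 1 gene often disagreed in sign. Among the 26 members with 2 or more tested probe sets, 15 had log2 fold changes of both signs. The difference between genotypes exceeded the gap between the mice of each genotype for 9 of the 37 members on the brightest probe set. The share of all tested genes with such a difference was not counted, so whether the members stand out in this cannot be told. When 1 mouse was left out in turn, the sign turned for 19 members, most of them near 0.
The signal set how much could be seen. For the 8 members at a mean signal of 500 or more log2 fold changes lay between -0.09 and 0.13, and the distance from the estimate to either end of the 95% interval had a median of 0.18. This distance was 0.48 for the 20 members from 100 to 500 and 0.77 for the 9 members below 100. The interval lay within 2-fold either way for 29 of the 37 members (78.4%, beside 83.4% of all tested genes) and within 1.5-fold for 14 (37.8%, beside 60.0%). Of the remaining 8, the intervals of *Kremen1* and *Nkd2* lay above 0, and those of the other 6 held both no change and a change of 2-fold.

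**Figure D4:**
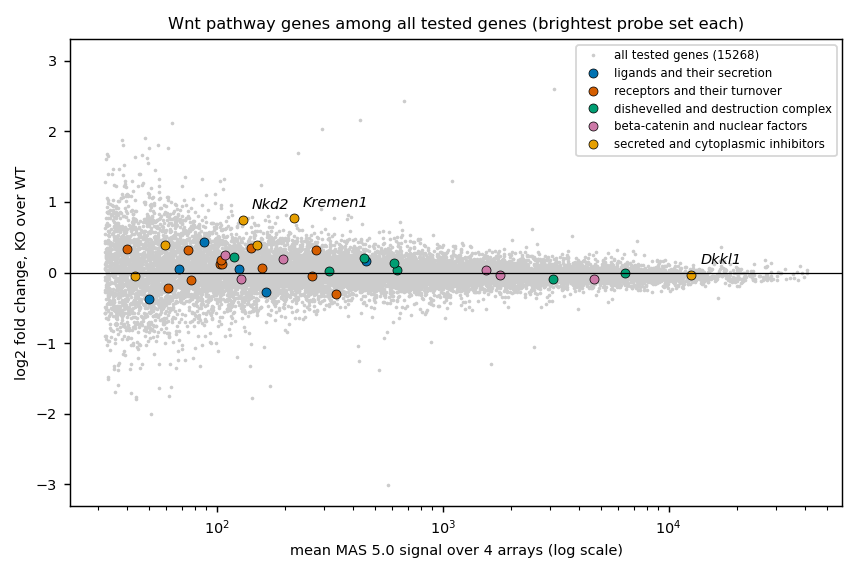
Log2 fold change of *Ccnyl1* KO over WT testis (y axis) against mean signal (x axis, MAS 5.0, 4 arrays, log scale) for the brightest probe set of each of the 15268 tested genes (grey), with the 37 members coloured by role. *Kremen1* (0.78) and *Nkd2* (0.75) lie at the upper edge of the genes of their brightness, and the other members lie among them.

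Genes of the pathway outside the 42 gave the same count of calls. Of 55 further ligands, receptors, secreted modulators, kinases and cofactors, 41 were tested, 0 were called higher and 0 lower, and 20 were positive and 21 negative (median -0.01). Without overlap 6 of the 41 were higher and 6 lower, beside 17.7% and 18.3% of all tested genes. Where 2.85% of all tested genes were higher and 3.45% lower at an unadjusted p under 0.05 from limma, 2 of the 41 were higher and 1 lower. These, chosen after their values were seen, were *Csnk1g3* (0.37) and *Bcl9l*, a cofactor of β-catenin (0.41), and *Csnk1g2*, which encodes a membrane-bound casein kinase 1 that acts on LRP6, with 8841 and 8561 in WT and 7161 and 7549 in *Ccnyl1* KO mice (-0.24, adjusted p = 0.645 from limma). Of 12 textbook target genes that are not members, 7 were tested and 0 were called in either direction. Of these 7, 6 were positive and 1 negative (median 0.19), where 49.9% of all tested genes were positive. None of the 7 was higher without overlap, and 1, *Ccnd1*, was lower, beside 17.7% and 18.3% of all tested genes. *Ccnd1* had 234 and 240.4 in WT and 226 and 208 in *Ccnyl1* KO mice (-0.12), and *Notum* overlapped (0.29). The other 5 were below the minimum signal. *Dkk1*, which encodes a secreted inhibitor and stands in both lists, had 29.8 and 49.2 in WT and 12.5 and 14.0 in *Ccnyl1* KO mice, so that both *Ccnyl1* KO mice lay below both WT mice. The mice overlapped for *Lgr5*, *Sp5*, *Myc* and *Cd44*, with mean signals of 29.8, 14.1, 19.9 and 20.7.

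Germ cell markers of the testis were present in all samples, and none of the marker genes was called. The summed signal of 6 elongating spermatid genes (*Prm1*, *Prm2*, *Tnp1*, *Tnp2*, *Odf1*, *Akap4*) was 182054 to 187766 in WT and 178031 to 187045 in *Ccnyl1* KO testes, that of 6 round spermatid genes 33046 to 33446 and 32164 to 32574, that of 6 spermatocyte genes 23321 to 24206 and 25739 to 26183, and that of 5 spermatogonial genes 1803 to 1846 and 1762 to 1958. In this bulk tissue, fewer cells of a type and less RNA per cell cannot be told apart. The 5 myoid genes summed to 2786 to 2969 in WT and 3015 to 3405 in *Ccnyl1* KO mice, all 5 with a positive log2 fold change (median 0.14), and the 4 measured Leydig genes to 3708 to 6741 and 4946 to 8883 (3 positive, median 0.47). The 8 Sertoli genes summed to 19815 to 21081 and 19395 to 19805 (5 positive, median 0.08), a sum made up mostly of *Clu*, which had 16361 and 17332 in WT and 15989 and 15661 in *Ccnyl1* KO mice. The 4 endothelial genes summed to 355 to 370 and 357 to 390.3 (2 positive), and the 6 macrophage genes to 2078 to 3083 and 1795 to 2041 (0 positive, median -0.20). The 3 epididymal genes with a probe set summed to 46.5 to 55.3 and 83.4 to 154. The only one of them tested, *Lcn8*, had 12.3 and 26.2 in WT and 58.2 and 54.1 in *Ccnyl1* KO mice, a log2 fold change of 1.06 that failed the threshold (limma, adjusted p = 0.81). The WT mean of *Lcn8* was 19.2, below the minimum signal, so it entered the test only through the *Ccnyl1* KO mice. This way of entry favours a positive log2 fold change. The sums of the spermatocyte, myoid and epididymal genes were higher in both *Ccnyl1* KO mice than in both WT mice, and those of the round spermatid, Sertoli and macrophage genes were lower in both. A sum follows its brightest genes. Of the spermatocyte genes 4 were positive and 2 negative, and *Dmc1* had 494 and 695 in WT and 458 and 301 in *Ccnyl1* KO mice (-0.64). Of the round spermatid genes 1 was positive and 5 negative. The epididymal genes were dim, and *Lcn5* had 5.65 and 3.72 in WT and 66.8 and 4.24 in *Ccnyl1* KO mice. No defining marker with a probe set was at 0. The part of any of these in the signals of *Kremen1*, *Nkd2* or the other members was not tested.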

How the data were processed

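Testis RNA of 2 WT and 2 *Ccnyl1* KO mice was hybridised to 1 array each, and groups and replicate numbers came from the labels. The values deposited by the authors are intensities, MAS 5.0 signals with background and mismatch correction, scaled by 1 factor per array. The trimmed mean (2% left out at each end) is 500 on all 4, although the methods name another target. Probe sets were named through the platform annotation, and gene identifiers of all 104 member probe sets gave the same symbols in RefSeq (0 differed). Log2(signal + 16) was tested in R 4.3.3 with limma 3.58.1 (lmFit, eBayes with trend), with genotype alone in the design, over probe sets with a mean signal of at least 32, out of 45037 without controls. Intervals are 95% intervals of this test. Its calls, not the intervals, were tested on simulated data. No detection calls were used here, and the number of arrays limits the precision.

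The members and gene lists were chosen with earlier results of these data known. All 42 members were to be named, with values per mouse for those with separated mice at an unadjusted p under 0.05, the blotted proteins, the LRP6 branch, target genes and Dickkopf genes. Values per mouse of other genes were chosen after their values were seen. Alternatives were another or no offset, another or no minimum signal, median scaling, quantile normalization, no variance trend, the test of 2 groups that the methods name, the replicate number as a block, the mean over probe sets and leaving out each mouse. Same-numbered mice of the genotypes did not deviate together (correlation 0.014 across probe sets).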

Additional observations from a re-analysis of the deposited data

How the results depend on the processing

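No member passed in the alternatives that give a test. The mean over the probe sets of a gene gives a value and no test. Over all tested probe sets, 4 were called, 7 with arrays scaled to one median, 0 without the variance trend, 0 with the methods' test of 2 groups, 14 with the replicate block and 11 to 57 when 1 mouse was left out (57 without WT replicate 1, 47 without WT replicate 2, 11 without *Ccnyl1* KO replicate 1 and 14 without *Ccnyl1* KO replicate 2). The block moved no log2 fold change and called no member. With a minimum signal of 160, 9 of 17 members and 47.5% of all tested genes were positive, where 24 of 37 and 49.9% had been.

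Of 332 pairs of a member and an alternative, 295 kept the sign and 37 turned it, all of them without a call. With arrays scaled to one median the turned values were -0.021 for *Wnt5b*, -0.011 for *Fzd1*, -0.047 for *Dvl2*, -0.047 for *Axin1*, -0.036 for *Lef1* and -0.015 for *Wls*. With quantile normalization they were -0.0043 for *Wnt5b*, -0.00062 for *Fzd1*, 0.011 for *Dvl1*, -0.010 for *Dvl2*, 0.0080 for *Dkkl1* and -0.024 for *Wls*. Without 1 mouse the ranges that crossed 0 were -0.11 to 0.21 for *Wnt5b*, -0.11 to 0.23 for *Fzd1*, -0.0095 to 0.66 for *Fzd2*, -0.32 to 0.57 for *Fzd5*, -0.37 to 0.26 for *Fzd6*, -0.051 to 0.91 for *Fzd8*, -0.26 to 0.038 for *Lrp5*, -0.094 to 0.067 for *Dvl1*, -0.098 to 0.15 for *Dvl2*, -0.034 to 0.093 for *Axin1*, -0.25 to 0.059 for *Tcf7l1*, -0.067 to 0.57 for *Tcf7l2*, -0.013 to 0.096 for *Lef1*, -0.37 to 0.28 for *Dkk3*, -0.098 to 0.033 for *Dkkl1*, -0.22 to 0.32 for *Wls*, -0.53 to 0.094 for *Rnf43*, -0.010 to 0.28 for *Btrc* and -0.14 to 0.071 for *Cby1*. The cause was not tested.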
